A study of Danio rerio with 4 samples.

Results

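Collagen genes were examined across ventricles of the adult zebrafish heart, before and after injury, in wild-type fish and in dusp6 mutants. The members are genes whose name in the deposited tables starts with col, a type number, the letter a and a chain number, and which had 50 or more read counts in at least 1 of 4 libraries. Of 31388 genes in the tables, 59 matched the name pattern. Of these, 34 reached 50 counts, among 15621 genes in the tables that did. The pattern also took in col4a3bpa and col4a3bpb, which encode a ceramide transfer protein and not a collagen and were at 2.45 to 16.9 CPM (read counts scaled to a common library total). They were set aside, so the collagen genes described here number 32 of 57. Of the 32, 26 reached 50 counts in every library and 6 in fewer (col11a1b, col17a1a, col19a1_2, col27a1b, col4a4 and col4a6). Just inside the threshold were col4a4, with at most 60 counts in a library, and col27a1b with at most 67. Just outside were col8a2, with at most 49, and COL21A1 with at most 41. Of the 25 collagen genes below it, 2 had no counts in any library.

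Ventricle RNA was sequenced in 4 libraries, with a single library per group. Wild-type (WT) fish were of the AB* strain and mutant fish carried the pt30a allele of dusp6 on both chromosomes, written dusp6 pt30a/pt30a in the labels. Each genotype was sampled uninjured and at 20 days post amputation (dpa), after ventricular resection, which removes a piece of the ventricle. All fish were between 6 months and 1 year old, and the sources used here do not say how many ventricles a library holds. Dusp6 encodes a phosphatase that switches off the kinase ERK.

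Total counts lay between 55197408 and 63222206 per library. The dusp6 transcript was not lower in the mutants and so gives no check of the genotype labels. It stood at 85 CPM in the uninjured WT library and 183 in the uninjured mutant, against 105 and 121 at 20 dpa. All 9 listed cardiomyocyte markers were detected, with myl7, a cardiac myosin light chain, at 17757 to 18935 CPM. As each group is a single library, no difference has a replicate check. Intervals are at the 95% level and cover error of counting alone, not differences between fish or libraries. Without molecular identifiers reads cannot be counted as separate molecules, so the intervals may be too narrow even for that error. In bulk tissue, fewer cells of a type and less RNA per cell cannot be told apart.

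Collagens are secreted or membrane-bound proteins whose chains wind into a triple helix. Fibrillar collagens such as types I, III and V assemble into the tensile fibres of connective tissue and scar, while type IV forms the mesh of basement membranes around vessels and muscle cells, and type VI forms beaded filaments between them. Fibril-associated collagens coat and link fibres, multiplexins bridge basement membranes to stroma, and transmembrane collagens anchor cells to matrix. After resection the zebrafish ventricle lays down fibrin and collagen for a time and then largely replaces them with muscle.

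Collagen transcripts made up 0.137% of all counts in the uninjured WT library and 0.148% in the uninjured mutant, against 0.216% (WT) and 0.149% (dusp6) at 20 dpa. The WT 20 dpa library thus stood above the other 3, which lay close together. Scaled for library size by the trimmed mean of M values (TMM), the summed collagen CPM was 1291, 1469, 2161 and 1587 in the same order. The sum was 1.67-fold higher (1.66 to 1.69) in WT 20 dpa than in WT uninjured. In dusp6 20 dpa it was 1.08-fold higher (1.07 to 1.09) than in dusp6 uninjured. All CPM values that follow are TMM-scaled, and the 4 values of a gene are given in the order WT uninjured, dusp6 uninjured, WT 20 dpa and dusp6 20 dpa.

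Levels of different genes were compared per length, as RPKM, the counts scaled to library total and gene length, which the authors deposited. The highest mean RPKM over the 4 libraries belonged to col1a1b at 33.6, followed by col1a1a at 26.5, col1a2 at 26.3 and COL23A1 (1 of 2) at 26.2. These 4 genes are the 3 chains of type I collagen and a transmembrane collagen. They were followed by col4a1 at 20, COL5A2 (2 of 2) at 19.6, col6a2 at 19.1 and col6a1 at 18.9. A gap came next, with col4a2 at 8.58. The length-scaled level of all 32 genes was concentrated in these 8, which held 77.2%, 77.8%, 81.9% and 80.8% of it in the 4 libraries. The gene model of COL23A1 (1 of 2) is 1855 bases, against 9641 for its copy COL23A1 (2 of 2), so its level per length rests on a short model.

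**Figure D1:**
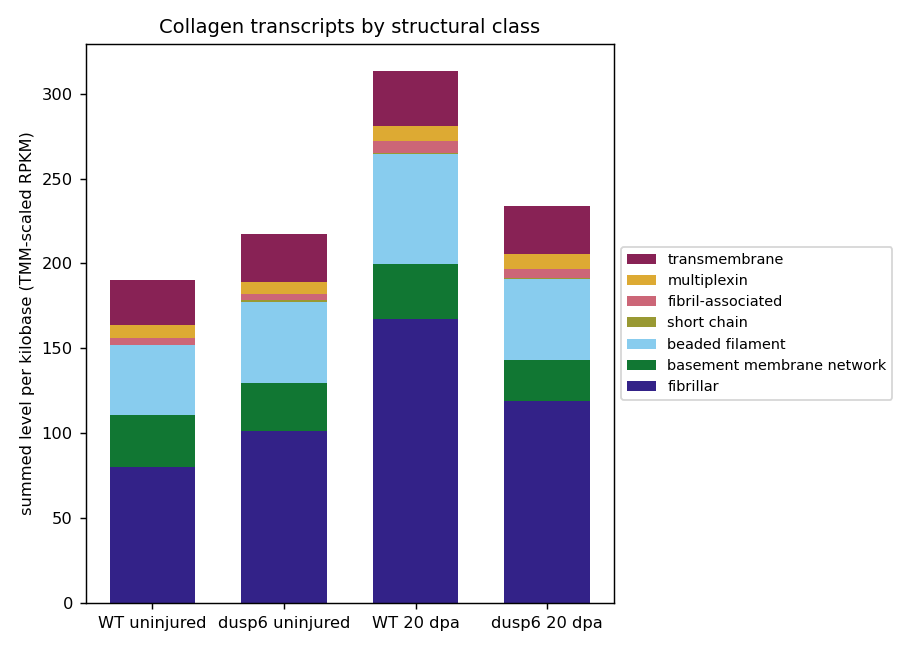
Stacked bars give the summed level per kilobase (TMM-scaled RPKM) of the collagen genes in each of the 4 libraries, divided by structural class, with 1 library per bar and no error bar. The total was 190 (WT) and 217 (dusp6) uninjured, against 313 and 234 at 20 dpa, and the fibrillar class took the largest part of each bar.

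The class makeup differed between the uninjured and the 20 dpa libraries. Fibrillar collagens held 42.3% (WT) and 46.5% (dusp6) of the length-scaled level in uninjured hearts, against 53.2% and 50.9% at 20 dpa. Their share was thus higher at 20 dpa in both genotypes. Type IV chains went the other way, with 16.1%, 13.1%, 10.4% and 10.4%. Beaded filament collagens kept a near-level share, between 20.3% and 22.1%. Transmembrane collagens held 10.4% to 13.9%, multiplexins 2.76% to 4.11% and fibril-associated collagens 1.76% to 2.37%.

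**Figure D2:**
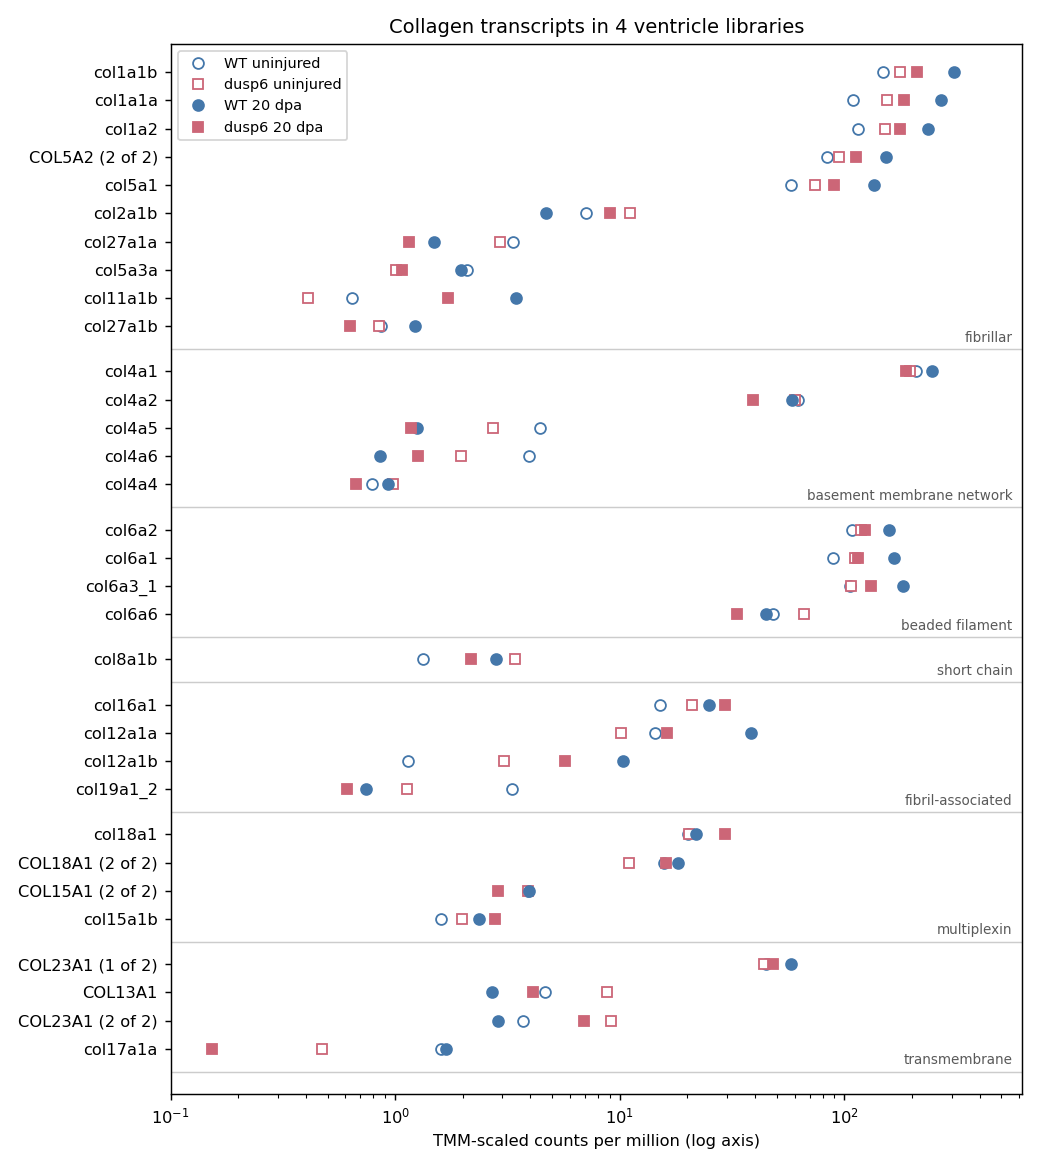
Points give the TMM-scaled CPM (log axis) of each of the 32 collagen genes in each of the 4 libraries, 1 point per library, with genes grouped by class. The type I chains, col4a1 and the type VI chains col6a1, col6a2 and col6a3_1 are among the highest, and for the type I chains, col5a1 and COL5A2 (2 of 2) the WT 20 dpa point lies to the right of the other 3.

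Type I collagen is the main protein of tensile fibres, built in fish from chains encoded by col1a1a, col1a1b and col1a2. The values of col1a1a were 109, 154, 269 and 184 CPM. Those of col1a1b were 149, 177, 307 and 211 CPM. Those of col1a2 were 115, 151, 236 and 177 CPM. For each chain WT uninjured was lowest and WT 20 dpa highest, with the mutant libraries between them. In WT, col1a1a was 2.48-fold higher (2.41 to 2.55) at 20 dpa, col1a1b 2.05-fold (2 to 2.11) and col1a2 2.06-fold (2 to 2.11). In dusp6 the same ratios were 1.19 (1.16 to 1.23), 1.19 (1.16 to 1.22) and 1.17 (1.13 to 1.2). Part of the gap between genotypes lay in the uninjured libraries, where the summed type I level was 1.29-fold higher in dusp6 than in WT, and part at 20 dpa, where it was 1.42-fold lower. Set against the uninjured library of the other genotype, the sum was 1.68-fold higher in WT 20 dpa and 1.53-fold higher in dusp6 20 dpa.

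The balance between type I chains also differed between libraries. The level of col1a1a per length was 0.679 of that of its copy col1a1b in WT uninjured (0.658 to 0.7). It was 0.808, 0.818 and 0.81 in dusp6 uninjured, WT 20 dpa and dusp6 20 dpa, whose intervals overlap each other and lie above that of WT uninjured. Against col1a2, the level of col1a1a was 0.903 (WT) and 0.97 (dusp6) in uninjured hearts, against 1.09 and 0.994 at 20 dpa. These and the other ratios of chains were chosen after values had been seen.

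Type V collagen co-assembles with type I and limits fibre width. The values of col5a1 were 57.7, 73.6, 135 and 89.8 CPM, and those of COL5A2 (2 of 2) were 83.6, 94.3, 153 and 113 CPM. Both followed the order of the type I chains, with WT 20 dpa highest. In WT, col5a1 was 2.35-fold higher (2.26 to 2.44) at 20 dpa and COL5A2 (2 of 2) 1.83-fold. In dusp6 both were close to 1.2-fold higher, at 1.22 for col5a1 and 1.2 for COL5A2 (2 of 2). At 20 dpa, col5a1 was 1.51-fold lower (1.45 to 1.56) in dusp6 than in WT. A further type V chain, col5a3a, differed by genotype and little by injury, at 2.08, 1.01, 1.96 and 1.07 CPM. Both dusp6 libraries were the low ones, 2.05-fold lower (1.51 to 2.82) uninjured and 1.83-fold lower at 20 dpa.

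The remaining fibrillar genes are best known from cartilage and were present at low levels. The values of col11a1b, a type XI chain that seeds thin fibres, were 0.642, 0.408, 3.45 and 1.72 CPM, from 43, 25, 190 and 90 counts. Both 20 dpa libraries were high and the gene reached 50 counts in these alone, so it entered the comparison through them. It was 5.37-fold higher (3.84 to 7.66) at 20 dpa in WT and 4.22-fold (2.69 to 6.87) in dusp6, the largest injury ratio of a fibrillar gene in either genotype. The type XXVII chain col27a1a went the other way in both genotypes, at 3.35, 2.94, 1.49 and 1.15 CPM. It was 2.25-fold lower (1.74 to 2.93) at 20 dpa in WT and 2.56-fold lower (1.9 to 3.49) in dusp6. Its copy col27a1b stayed between 0.631 and 1.22 CPM.

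The type II gene col2a1b separated the genotypes in each state, at 7.06, 11.1, 4.67 and 9.05 CPM. It was higher in both dusp6 libraries, 1.57-fold (1.39 to 1.77) uninjured and 1.94-fold (1.66 to 2.27) at 20 dpa, and lower at 20 dpa in each genotype. Of 10 listed cartilage markers 5 reached 50 counts, and the list summed to 62.9, 32.8, 63.1 and 58.8 CPM, low in dusp6 uninjured, where col2a1b was highest. Most of this sum was the link protein gene hapln1a, at 38.3, 13, 44.3 and 42.1 CPM, and the matrilin gene matn4, at 14.4, 15, 10.5 and 9.95 CPM. The proteoglycan gene acana was at 5.99, 1.08, 4.18 and 2.72 CPM, and lect1 was at or below 0.0191 CPM in every library. The part of cartilage cells in these values was not tested.

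**Figure D3:**
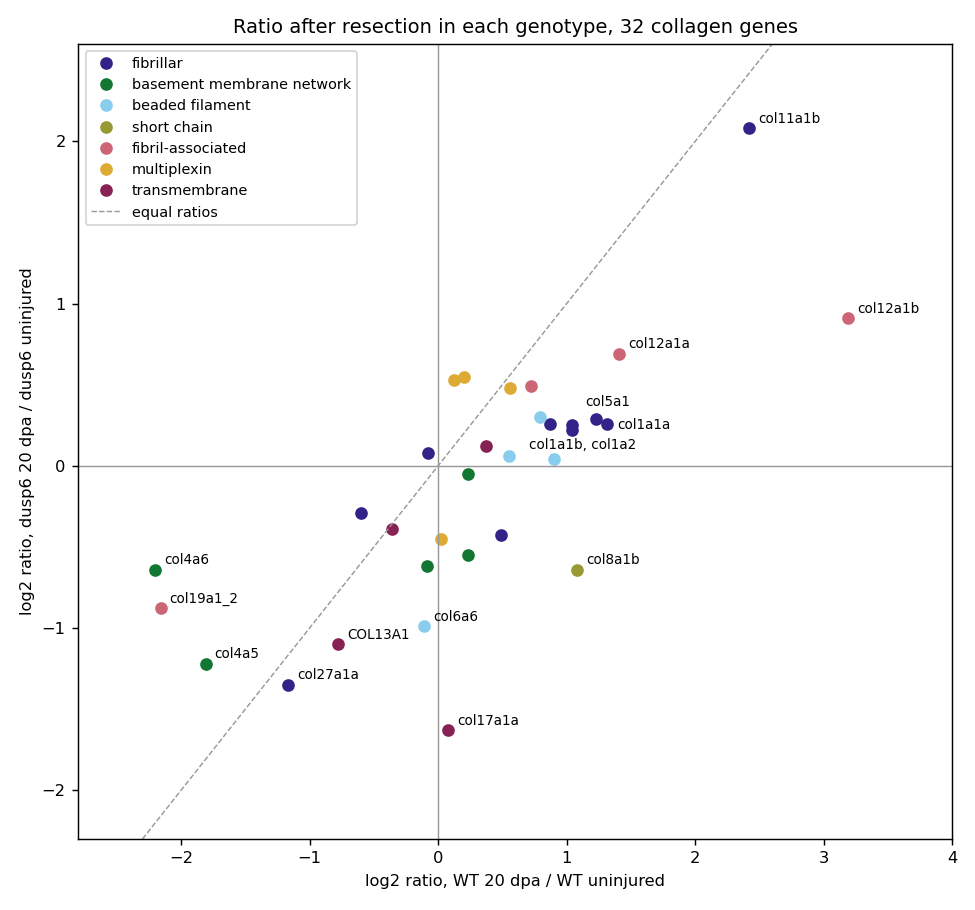
Each of the 32 collagen genes is placed by its log2 ratio at 20 dpa over uninjured in WT (horizontal axis) and in dusp6 (vertical axis), coloured by class, and the dashed line marks equal ratios. Most genes, 25 of 32, lie below the line, col11a1b is at least 2-fold higher in both genotypes, and col27a1a and col4a5 are at least 2-fold lower in both. The gene col11a1b reached 50 counts in the 20 dpa libraries alone.

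Among fibril-associated collagens, both type XII genes were highest in WT 20 dpa. Type XII collagen bridges fibres under load. The values of col12a1a were 14.4, 10.1, 38.2 and 16.3 CPM, and those of col12a1b were 1.14, 3.05, 10.3 and 5.72 CPM. In WT, col12a1a was 2.65-fold higher (2.45 to 2.86) at 20 dpa and col12a1b 9.1-fold higher (7.15 to 11.7), the largest ratio of any of the 32 genes in WT. In dusp6 the ratios were 1.61 (1.45 to 1.79) and 1.88 (1.56 to 2.26). The col12a1b difference between genotypes was made at both ends, since dusp6 uninjured was 2.69-fold higher (2.05 to 3.56) than WT uninjured and dusp6 20 dpa was 1.81-fold lower than WT 20 dpa. Per length, the level of col12a1a was 14.2 times that of col12a1b in WT uninjured, against 3.18 to 4.12 times in the other 3 libraries.

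Of the other fibril-associated genes, col16a1 was higher at 20 dpa in both genotypes and col19a1_2 lower. Type XVI collagen associates with small fibres, and its gene was at 15.1, 21, 24.9 and 29.5 CPM. This is 1.64-fold higher at 20 dpa in WT and 1.41-fold higher in dusp6, which was the higher genotype in each state. Type XIX collagen is found near basement membranes, and col19a1_2 was at 3.32, 1.13, 0.744 and 0.612 CPM, from 222, 69, 41 and 32 counts. It reached 50 counts in the uninjured libraries alone, so it entered the comparison through them. WT uninjured was the library that stood apart. There the level was 4.46-fold higher (3.18 to 6.38) than in WT 20 dpa and 2.95-fold higher (2.24 to 3.92) than in dusp6 uninjured.

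In basement membranes, the common type IV chains and the restricted ones differed in pattern. The α1 gene col4a1 was at 209, 195, 245 and 188 CPM, and its partner col4a2 was at 62, 60, 58.4 and 39.1 CPM. Neither differed by as much as 2-fold, and the low value was col4a2 in dusp6 20 dpa, 1.54-fold lower (1.46 to 1.62) than in dusp6 uninjured and 1.49-fold lower than in WT 20 dpa. The col4a1 level per length was 2.07 times that of col4a2 in WT uninjured and 1.99 times in dusp6 uninjured, against 2.58 times in WT 20 dpa and 2.95 times in dusp6 20 dpa. The pair lie next to each other in the RefSeq annotation (GRCz12tu), as do the pair described next.

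The α5 and α6 chains form a separate type IV network of selected basement membranes such as those of smooth muscle. The values of col4a5 were 4.41, 2.72, 1.25 and 1.17 CPM and those of col4a6 were 3.93, 1.97, 0.853 and 1.26 CPM. Both genes were highest in WT uninjured, next in dusp6 uninjured and low at 20 dpa, where col4a6 had 47 counts in WT, under the threshold of 50. In WT they were 3.52-fold lower (2.7 to 4.64) and 4.6-fold lower (3.37 to 6.42) at 20 dpa. In dusp6 they were 2.33-fold lower (1.73 to 3.18) and 1.56-fold lower (1.15 to 2.14). Per length, col4a5 was at 0.0306 (WT) and 0.0203 (dusp6) of the col4a1 level in uninjured hearts, against 0.00742 and 0.00902 at 20 dpa. The α4 gene col4a4 stayed between 0.67 and 0.979 CPM.

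Markers of mural cells and the outflow tract did not move as 1 group. The elastin gene elna was at 38.4, 36.8, 18 and 14.7 CPM and elnb at 16.5, 8.78, 7.62 and 2.09 CPM, both low at 20 dpa. The smooth muscle calponin gene cnn1b was high there, at 5.12, 3.92, 19.6 and 10.9 CPM, and acta2, smooth muscle actin, was at 55.5, 42.7, 57.5 and 47.6 CPM. All 7 measured markers of that list summed to 192, 180, 206 and 140 CPM, with none at 0, and their median injury log2 ratio was 0.24 in WT and -0.16 in dusp6. The part of mural or outflow tract tissue in the col4a5 and col4a6 values was not tested.

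Type VI filament genes other than col6a6 were, like the type I chains, highest in WT 20 dpa. The values of col6a1 were 89, 111, 166 and 115 CPM, and WT 20 dpa was 1.87-fold higher (1.81 to 1.93) than WT uninjured while the dusp6 ratio was 1.03 (0.995 to 1.07). The ratios in WT and dusp6 were 1.47 and 1.04 for col6a2, from 108, 119, 158 and 124 CPM. For col6a3_1 they were 1.73 and 1.23, from 106, 107, 183 and 131 CPM. The row named col6a6, which the gene name table calls col6a4a, was at 48.1, 66.2, 44.6 and 33.4 CPM. It was 1.98-fold lower (1.87 to 2.1) at 20 dpa in dusp6, and its WT ratio was 0.927. The dusp6 ratios of col6a1 and col6a2 were below 1 when scaled by total counts. Per length, col6a6 stood at 0.81 of col6a3_1 in WT uninjured and 1.1 in dusp6 uninjured, against 0.434 and 0.453 at 20 dpa.

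**Figure D4:**
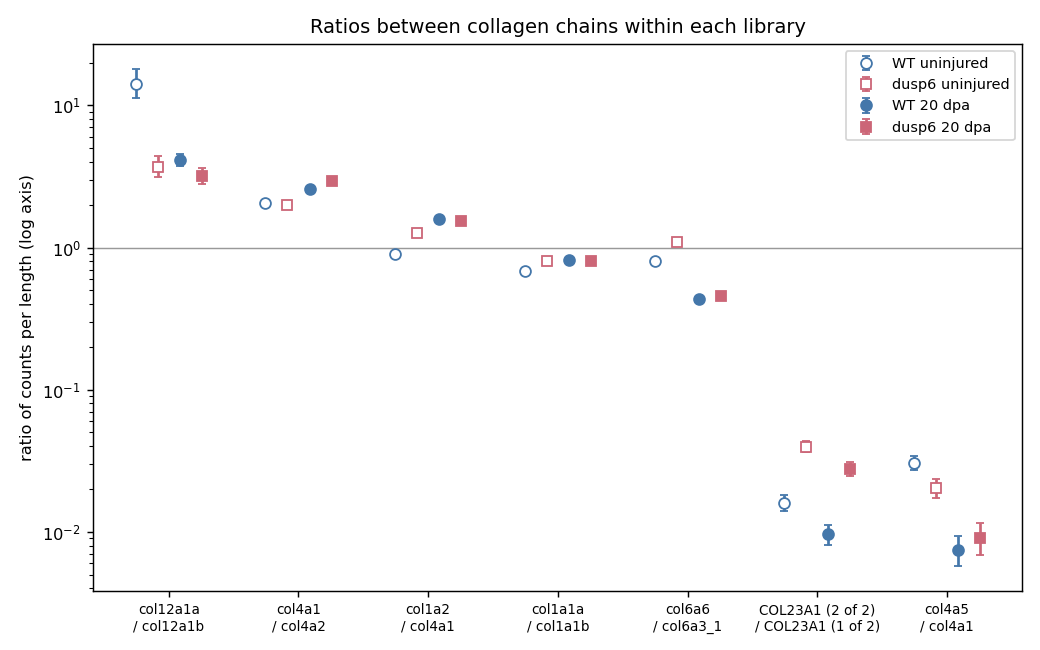
Points give the level per length of a collagen chain over that of a partner or copy (log axis) in each of the 4 libraries, with 95% intervals for error of counting alone. The col12a1a over col12a1b ratio was 14.2 in WT uninjured and 3.18 to 4.12 elsewhere, and the col6a6 over col6a3_1 ratio was lower in both 20 dpa libraries.

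Multiplexins showed small differences. Type XVIII collagen is a basement membrane proteoglycan whose end fragment is endostatin. Its gene col18a1 was at 20.2, 20.3, 21.9 and 29.4 CPM, with dusp6 20 dpa high, 1.45-fold (1.34 to 1.56) above dusp6 uninjured. The copy COL18A1 (2 of 2) was at 15.7, 11, 18.1 and 16 CPM, with dusp6 uninjured low. The copies therefore stood in different balance by genotype, with col18a1 per length at 0.898 and 0.846 of its copy in the WT libraries and 1.29 and 1.28 in the dusp6 libraries. The type XV genes col15a1b and COL15A1 (2 of 2) stayed between 1.6 and 3.96 CPM.

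The transmembrane genes COL23A1 (2 of 2), COL13A1 and col17a1a differed between the genotypes by 1.5-fold or more the same way in each state. Fibrillar genes such as col2a1b and col5a3a did so too. The share of all genes that do so is not given here. Type XXIII collagen is a cell-surface collagen, and COL23A1 (2 of 2) was at 3.69, 9.1, 2.87 and 6.93 CPM. Both dusp6 libraries were high, 2.47-fold (2.12 to 2.88) uninjured and 2.42-fold (2 to 2.93) at 20 dpa, while the injury ratios were 0.777 in WT and 0.761 in dusp6. The abundant copy COL23A1 (1 of 2) did not follow it, at 44.6, 44, 57.7 and 47.9 CPM. Type XIII collagen sits at cell adhesion sites, and COL13A1 was at 4.62, 8.79, 2.69 and 4.09 CPM. It was higher in dusp6 in each state, 1.91-fold (1.65 to 2.2) and 1.52-fold (1.23 to 1.89), and lower at 20 dpa in each genotype, 1.72-fold in WT and 2.15-fold (1.83 to 2.53) in dusp6.

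Type XVII collagen anchors epithelial cells to their basement membrane, and col17a1a was low in dusp6. Its values were 1.6, 0.473, 1.69 and 0.153 CPM, from 107, 29, 93 and 8 counts, so it passed the threshold through the WT libraries. The dusp6 level was 3.38-fold lower (2.22 to 5.28) uninjured and 11-fold lower (5.37 to 26.3) at 20 dpa. Of the 7 listed skin markers, which include epithelial keratins, none was at 0, and they summed to 283, 277, 506 and 473 CPM. Most of this sum was krt4, at 107, 81.1, 191 and 142 CPM, and icn, at 176, 194, 309 and 326 CPM. In each state krt4 was lower in dusp6 than in WT and icn was not. The part of skin or other epithelium in the col17a1a values was not tested.

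The short-chain gene col8a1b, of the type VIII collagen found in vessel walls, was at 1.33, 3.41, 2.81 and 2.18 CPM. WT uninjured was low and dusp6 uninjured high. It was 2.12-fold higher (1.62 to 2.78) at 20 dpa in WT and 1.56-fold lower (1.24 to 1.98) in dusp6.

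Counted by the fold threshold, the WT comparison asked which collagen transcripts differed 20 days after resection in fish that carry dusp6. A gene was counted where the libraries differed by 2-fold or more and the higher one had at least 50 counts. Of 32 collagen genes, 8 were higher and 4 lower, 12 in all or 37.5%, against 12.2% of all genes compared. The higher ones were the 3 type I chains, col5a1, col11a1b, col12a1a, col12a1b and col8a1b, against a background of 6.86%. The lower ones were col4a5, col4a6, col27a1a and col19a1_2, against 5.29%. In this comparison col4a6 and col19a1_2 had 50 counts in WT uninjured alone, where they were high, and col11a1b in WT 20 dpa alone. These genes thus entered through the library in which they were high. By class, 5 of 10 fibrillar and 2 of 4 fibril-associated genes were higher, and none of the 4 beaded filament, 4 multiplexin and 4 transmembrane genes passed in either direction. Among the 26 genes with 50 counts in every library, 7 were higher and 2 lower, 9 in all or 34.6%, against 8% of all genes with such counts. The median log2 ratio was 0.30 over the collagen genes and -0.01 over all genes.

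The number of higher genes in WT depended on the uninjured library and on scaling. Against the mean of both uninjured libraries, 5 were higher and 6 lower. Against dusp6 uninjured alone, 4 were higher and 5 lower. The share of all genes that pass against these references is not given here, so these counts have no background. Scaled by total counts in place of TMM, 5 were higher and 4 lower, because col1a1b, col1a2 and col8a1b then lay under 2-fold. With that scaling the median log2 ratio of all genes was -0.09 in WT and -0.12 in dusp6, against -0.01 in both with TMM.

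The dusp6 comparison asked the same of the mutant. Of 31 genes compared, 1 was higher (col11a1b) and 3 lower (COL13A1, col27a1a and col4a5), 4 in all or 12.9%, against 15.3% of all genes, 6.64% higher and 8.66% lower. The collagen count was thus near the background. Among the 26 genes with 50 counts in every library 0 were higher and 3 lower, or 11.5%, against 10.3% of all genes with such counts. The median log2 ratio was 0.06, and it was -0.04 with total counts, where col6a6 also passed as lower. Against the mean of both uninjured libraries, or against WT uninjured alone, 7 genes passed. These counts too have no share of all genes beside them.

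Set side by side, col11a1b was higher and col27a1a and col4a5 were lower by 2-fold or more in both genotypes, and no gene passed 2-fold in opposite directions. Of these, col11a1b reached 50 counts in the 20 dpa libraries alone and so entered through the libraries in which it was high. The share of all genes that pass in both genotypes, or in opposite directions, is not given here. The injury ratio was larger in WT than in dusp6 for 25 of 32 collagen genes, or 78.1%, against 50% of all genes. The median difference between the log2 ratios, dusp6 minus WT, was -0.48 for collagen genes and 0.00 for all genes. For col1a1a it was -1.05 (-1.11 to -0.99) and for col12a1b it was -2.28 (-2.71 to -1.84). Ratios of the genotypes lay 2-fold or more apart for 6 of the 32, with 12.7% of all genes as the background. These differences between genotypes could not be tested, as each ratio is made of 2 single libraries.

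Between the uninjured hearts, 3 of 31 collagen genes were higher in dusp6 and 3 lower by 2-fold or more, 6 in all or 19.4%, against 7.47% of all genes, 4.21% higher and 3.26% lower. The higher ones were col12a1b, COL23A1 (2 of 2) and col8a1b, and the lower ones were col17a1a, col19a1_2 and col5a3a. Of these 6, col17a1a and col19a1_2 reached 50 counts in some libraries only, and among the 26 genes that did so in every library 3 were higher and 1 lower, or 15.4%, against 3.69% of all genes with such counts. The median log2 ratio was 0.14. Between the 20 dpa hearts, 1 gene was higher in dusp6, COL23A1 (2 of 2), and 3 were lower, col11a1b, col12a1a and col17a1a. This makes 4 of 31, or 12.9%, against 7.73% of all genes, 3.27% higher and 4.46% lower. Among the 26 genes with 50 counts in every library 1 was higher and 1 lower, or 7.69%, against 3.56%. Among the lower ones, col12a1a was 2.34-fold lower (2.16 to 2.54) and col11a1b 2-fold lower (1.55 to 2.6). Past 2-fold or not, 24 of the 31 had a ratio below 1 and 7 above, against 7289 of 14790 genes below 1 among all compared. The median log2 ratio was -0.42, against 0.01 over all genes. With DESeq2 size factors col4a6 also passed as lower in dusp6 uninjured, and col11a1b no longer passed at 20 dpa. The comparisons share libraries and are not independent of each other.

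An additive edgeR quasi-likelihood fit over all 4 libraries gave the nearest thing to a test of injury and of genotype. It has 1 residual degree of freedom, set by the gap between the injury ratios of WT and dusp6. No collagen gene passed a Benjamini-Hochberg adjusted p of 0.05 for injury, where 0.819% of all genes passed. The lowest adjusted p in this edgeR fit was 0.066 for col11a1b, which reached 50 counts in the 20 dpa libraries alone. At an unadjusted p under 0.05 there were 15 of the 32, 10 higher and 5 lower, with 27.4% of all genes as background. None passed for genotype either, where 0.0064% of all genes passed. For genotype 6 were under an unadjusted p of 0.05, against 8.83% of all genes, and COL23A1 (2 of 2) had the lowest adjusted p, 0.331 in edgeR.

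DESeq2 with the same design called more. For injury it called 5 collagen genes, all higher, against 8.92% of all genes in either direction and 4.99% higher. They were col12a1a (adjusted p 0.00397), col12a1b (0.00719), col11a1b (0.00983), col1a1a (0.0364) and col5a1 (0.0389). Of these, col11a1b reached 50 counts in the 20 dpa libraries alone and so entered through the libraries where it was high. For genotype DESeq2 called COL23A1 (2 of 2) at an adjusted p of 0.0409, against 0.954% of all genes. The authors' own test sets a single 20 dpa library against both uninjured libraries, which differ in genotype and are not replicates. The authors' deposited table for WT 20 dpa against both uninjured libraries has 4 collagen genes at a false discovery rate under 0.05, where 2.9% of all genes pass. In the authors' deposited table they are col12a1a (0.000541), col11a1b (0.0188), col12a1b (0.0197) and col5a1 (0.0414). The authors' deposited table for dusp6 20 dpa has none, its lowest value being 0.479, where 2.66% of all genes pass.

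Genes that fold, modify and cross-link collagen were listed to set beside the chains. Of 35 listed names 30 were found and 22 reached 50 counts. In WT 5 were higher and 0 lower by 2-fold or more, against 6.86% and 5.29% of all genes. In dusp6 5 were higher and 1 lower, against 6.64% and 8.66%. The collagen chaperone genes had the largest upward injury ratios of this list in dusp6. In WT the cross-linking enzyme gene loxl2a lay above them, at 8.54-fold. In the edgeR fit serpinh1a was higher at 20 dpa (adjusted p 0.0484), the only one of the 22 that passed. Over all genes 128 passed for injury in that fit, against 1 with total-count scaling and 880 with no floor. The outcome for serpinh1a in such other runs is not given here. The values of serpinh1a were 7.99, 6.69, 48.6 and 32.4 CPM, 6.08-fold higher in WT and 4.84-fold higher in dusp6. Its copy serpinh1b, at 8.93, 3.93, 39 and 36 CPM, did not pass (edgeR adjusted p 0.0525). In dusp6 the chaperone values were thus high at 20 dpa, while the summed type I level was 1.18-fold above dusp6 uninjured. Against WT uninjured that level was 1.53-fold higher, so the size of this contrast depended on the uninjured library.

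Cross-linking enzymes divided by gene. The lysyl oxidase gene loxl2a was at 1.78, 2.5, 15.2 and 6.33 CPM and loxl2b at 12, 13.8, 25.4 and 9.15 CPM. Both were highest in WT 20 dpa, and loxl2b was not higher at 20 dpa in dusp6. By contrast loxl1 was lower at 20 dpa in each genotype, at 48.5, 38.7, 25.7 and 19.8 CPM. The gene p4hb, the protein disulfide isomerase subunit of prolyl hydroxylase, was at 59.3, 116, 126 and 131 CPM, with WT uninjured alone low.

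Of genes for collagen uptake and breakdown, 13 of 17 were found and 10 reached 50 counts. In WT 2 were higher, mmp9 and mmp13a, both secreted matrix proteases, and 0 lower (all genes 6.86% and 5.29%). In dusp6 0 were higher and 1 lower (all genes 6.64% and 8.66%). At 20 dpa 3 were lower in dusp6 than in WT (all genes 4.46%). The values of mmp13a were 1.28, 1.6, 2.83 and 0.995 CPM and those of mmp9 were 0.836, 0.946, 1.78 and 0.88 CPM. The abundant protease gene mmp2 was at 57.2, 54.6, 81.4 and 70.6 CPM, higher at 20 dpa in each genotype by less than 2-fold. Collagen receptor genes, 13 of 14 found and 9 with 50 counts, summed to 162 to 186 CPM. In each genotype 1 receptor gene was higher and 1 lower by 2-fold or more, of 9 compared in WT and 7 in dusp6. In WT itga10 was 5.01-fold higher and itga11a 5.92-fold lower (all genes 6.86% and 5.29%). Each had 50 counts in a single WT library, itga10 at 20 dpa and itga11a uninjured, and entered through it. Both genes had under 50 counts in each dusp6 library, so they were not compared in dusp6. In dusp6 itga2.3 was higher, with 5 counts uninjured and 329 at 20 dpa, and ddr2l was 2.09-fold lower (all genes 6.64% and 8.66%). There itga2.3 entered through the 20 dpa library, in which it was high.

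Among partners of collagen fibres, fibronectin genes were high in WT 20 dpa alone and others in both 20 dpa libraries. Of 20 listed names 18 were found and 12 reached 50 counts. Of 11 compared in WT 5 were higher and 1 lower, where all genes gave 6.86% and 5.29%. Of 12 compared in dusp6 3 were higher and 1 lower, where all genes gave 6.64% and 8.66%. The fibronectin gene fn1b was at 157, 208, 438 and 195 CPM and fn1a at 16.8, 25.2, 48.7 and 18.3 CPM. Both were high in WT 20 dpa alone. The periostin gene postna was highest there too, at 25.4, 40.1, 63.2 and 34.3 CPM. The tenascin C gene tnc was at 0.732, 2.59, 4.07 and 1.24 CPM, high in dusp6 uninjured as well. Other partners were high in both 20 dpa libraries, such as sparc, a collagen-binding glycoprotein, at 98.4, 112, 188 and 206 CPM and postnb at 22.9, 19.7, 50.9 and 40.7 CPM. None of these partners passed the edgeR fit, where postnb had an adjusted p of 0.0525.

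Markers of cells that make or surround collagen also differed between the libraries. The 9 listed markers of epicardium and fibroblasts, all detected, summed to 275, 323, 722 and 453 CPM. This list shares fn1b and postnb with the partners above, and without fn1b its other 8 genes summed to 119, 115, 284 and 258 CPM, high in both 20 dpa libraries. The median injury log2 ratio of the 9 was 1.01 in WT and 0.98 in dusp6. At least 2-fold higher were 5 and 4 of them, against 6.86% and 6.64% of all genes. The retinoic acid synthesis gene aldh1a2 was at 42.3, 32.3, 150 and 116 CPM, and the epicardial factor tcf21 at 12, 12.5, 21.6 and 26.6 CPM. By the median of the 9 genes the list stood higher at 20 dpa in each genotype, but single genes differed between genotypes. The WT and dusp6 ratios were 2.11 and 0.894 for tbx18 and 2.79 and 0.939 for fn1b. For pdgfra they were 1.11 and 1.97, with dusp6 the larger. The type I ratios were 2.05 to 2.48 in WT and 1.17 to 1.19 in dusp6. The 7 macrophage markers found summed to 53.7, 61.8, 116 and 60.2 CPM, with WT 20 dpa high. Of skeletal muscle markers, 11 of 12 were 2-fold or more higher at 20 dpa in WT and 10 of 11 in dusp6. The background was again 6.86% and 6.64% of all genes. Only 4 of these markers had 50 counts in an uninjured library. The others entered through 20 dpa libraries, in which they were high, so their direction was set by the threshold. The gene mylpfa, which encodes a fast muscle myosin light chain, was at 0.433, 0.31, 17.7 and 5.55 CPM. Liver markers summed to 18.8, 69.9, 38.3 and 20.2 CPM, and without apoa1a, an apolipoprotein gene at 47.4 CPM in dusp6 uninjured, to 18.6, 22.6, 37.2 and 19.9 CPM. The part of these cell types in the collagen differences was not tested.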

How the data were processed

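Each of 2 deposited tables lists 31388 genes and sets a 20 dpa library beside both uninjured ones. Per the file headers the values are expression values, whole numbers here treated as counts, and RPKM computed by the authors. Further deposited columns give a signed fold change (a score, negative where a gene is lower) with the p-value and false discovery rate of the authors' EDGE test. The sources used here do not name the aligner, build, annotation, strand setting or handling of shared reads, so values of near-identical copies, overlapping genes and antisense genes are uncertain. The file headers name uninjured and 20 dpa libraries in different forms and no batch was labelled, so injury and library preparation cannot be told apart.

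CPM were computed from the deposited counts with TMM factors of 0.938 to 1.06, taken from genes with 50 or more counts in a library (edgeR 4.0.16, R 4.3.3). Fold ratios carry exact conditional 95% intervals, both from unchanged counts. For log2 ratios and counts of genes past 2-fold, counts under 3 were taken as 3, or 0.0448 to 0.0574 TMM-scaled CPM. Lengths were recovered from the authors' RPKM. The additive quasi-likelihood fit and DESeq2 1.42.0 ran over 15621 genes, and the fit was tested on simulated data. Python 3.11.15 did the remaining work. Values in every library are given for the 8 genes highest by mean RPKM, those past 2-fold the same way in both genotypes or both states, and the 4 largest ratios each way per comparison with at least 200 counts. The members col5a3a, col6a3_1 and col16a1 and the named genes of other lists were chosen after their values were seen. The members, lists and tests were chosen with earlier results of these data known. Names such as "2 of 2" come from the tables. Alternatives were other floors, fold thresholds, scalings, references and models.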

Additional observations from a re-analysis of the deposited data

Results flagged for a closer look

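The injury ratio of col8a1b, a type VIII collagen gene, pointed in opposite directions in the 2 genotypes by more than 1.5-fold each, the only collagen gene of 32 to do so. The share of all genes that do so is not given here. Its log2 ratio of 20 dpa over uninjured was 1.08 in WT and -0.64 in dusp6. Set against the uninjured library of the other genotype, the fold ratio was 0.825 (0.666 to 1.02) for WT 20 dpa. For dusp6 20 dpa it was 1.64 (1.23 to 2.19), so the directions depended on the uninjured library used. The counts behind it were low, at most 209 in a library. The difference between the genotypes was not tested, because each ratio is made of 2 single libraries. With scaling by total counts the WT ratio lay under 2-fold.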

How the results depend on the processing

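The WT injury count of 12 collagen genes stayed within 1.5 times under each alternative run, between 9 and 18. The split by direction was less stable. It was 8 higher and 4 lower against WT uninjured. Against the mean of both uninjured libraries it was 5 and 6, and against dusp6 uninjured 4 and 5. The dusp6 injury count of 4 was 7 with a floor of 10 counts, 1 with a floor of 200, 0 on the log2(CPM + 1) scale, 11 at 1.5-fold, 7 against the mean of both uninjured libraries and 7 against the other genotype's. Its median log2 ratio of 0.06 became -0.04 with total counts and -0.02 with a floor of 10 counts. The uninjured genotype count of 6 was 3 with a floor of 200, 2 on the log2(CPM + 1) scale and 10 at 1.5-fold. The 20 dpa genotype count of 4 was 2 with a floor of 200 and 10 at 1.5-fold. No share of all genes is given beside these alternative counts. Tested genes went from 0 to 5 for injury and from 0 to 1 for genotype with DESeq2, and to 1 for injury with no floor in edgeR. The cause was not tested. The collagen share of counts was 0.0972%, 0.0995%, 0.135% and 0.0952% without the 3 most abundant members, and 0.166%, 0.182%, 0.263% and 0.182% with mitochondrially encoded genes left out of the total. Including col4a3bpa and col4a3bpb, an alternative chosen after seeing the data, moved none of the 4 counts of genes past 2-fold. With 1 library per group, leaving out a library leaves no comparison and no residual degree of freedom. No paired analysis was possible because each group has 1 library and the labels carry no replicate numbers, while the file headers hold numbers of unstated meaning.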

Other observations

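Of the 25 collagen genes under 50 counts in every library, 3 had no counts in either uninjured library and a few in both 20 dpa libraries. The share of all genes under 50 counts with this pattern is not given here, so the number has no background. The type VII gene col7a1, which encodes the anchoring fibrils of epithelium, had 10 counts in WT 20 dpa and 3 in dusp6 20 dpa. The type X gene col10a1a, known from cartilage and bone, had 5 and 2. The type VIII gene col8a1a had 4 and 4. In the uninjured libraries a count of 0 allows up to 3 counts, which the dusp6 20 dpa counts of col7a1 and col10a1a do not exceed. The exact intervals of the dusp6 injury ratio started at 0.485 for col7a1, 0.22 for col10a1a and 0.774 for col8a1a. Those of the WT ratio started at 2.72, 1.11 and 0.802 in the same order. All intervals in dusp6, and that of col8a1a in WT, thus include equal levels. No difference was detectable in these cases at this depth. These genes were chosen after their values were seen.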
